A study of Mus musculus with 6 samples.

Results

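Keratins and keratin-associated proteins were followed in mouse skin around a subcutaneous pump. Probe sets were taken whose platform annotation names 1 gene, with a symbol that starts with Krt and a number or with Krtap. The 9 keratins Krt1, Krt5, Krt6a, Krt6b, Krt10, Krt14, Krt15, Krt16 and Krt17 were left out. This gave 66 probe sets for 57 genes, out of 12393 genes on the array, and each gene was read on its brightest probe set. The 57 genes were 12 keratins of the hair shaft, 4 of the inner root sheath, 2 of the companion layer and gland duct, 6 of other stratified epithelia, 6 of simple epithelia, 26 keratin-associated proteins and Krt88, to which no layer was given here.

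All mice were C57BL/6, and the pump released its content under the skin for 7 days. RNA was measured on 6 single-colour arrays. The pump delivered TGF-beta in 2 mice, called mouse 2 and mouse 1 after the labels, with IL-13, TSLP and PBS at the outlet (PBS local) on 1 array each. One more array held abdominal skin far from the outlet, with PBS as the agent (PBS distal). The labels do not say whether both PBS pieces came from 1 mouse, and they give no age, sex, dose or stage of the hair cycle, so the stage of the follicles on each array is unknown. Every group carried a pump, so no array shows skin without one. The comparisons ask how each cytokine, or distance from the outlet, goes with the levels of these genes. TGF-beta controls matrix and growth in many tissues, IL-13 is a product of T helper and innate lymphoid cells, and TSLP comes from epithelium.

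Keratins are the intermediate filament proteins of epithelia, and each filament pairs a type I with a type II keratin. In a growing hair follicle the matrix cells at the base of the bulb give rise to concentric layers, each with keratins of its own. The inner root sheath moulds the shaft, the cortex is the bulk of the shaft, and the cuticle covers it. Keratin-associated proteins are small proteins that embed and crosslink the keratin filaments of the shaft. They are classed as high-sulfur, ultrahigh-sulfur and high glycine-tyrosine proteins. Follicles pass through growth, regression and rest, and the shaft and inner root sheath are made in growth.

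The promoters of a few members are shown because the members moved together across arrays, as described below. Krt25 and Krt71 are a type I and a type II keratin of the inner root sheath, Krt34 is a type I keratin of the cortex, Krtap8-1 is a high glycine-tyrosine protein and Krtap4-16 an ultrahigh-sulfur protein. Krt77, a type II keratin of the epidermis that was high on all 6 arrays, is set beside them. Each line holds the 120 bases before the annotated start of transcription, 5′ to 3′ on the gene's strand, from RefSeq on GRCm38.p6, with the TATA box core TATAAA in capitals.
Krt25: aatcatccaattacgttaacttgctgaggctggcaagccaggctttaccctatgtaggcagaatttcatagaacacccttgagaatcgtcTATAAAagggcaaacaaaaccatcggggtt
Krt71: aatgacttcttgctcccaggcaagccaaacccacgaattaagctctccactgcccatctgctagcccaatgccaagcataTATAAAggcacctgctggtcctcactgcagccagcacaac
Krt34: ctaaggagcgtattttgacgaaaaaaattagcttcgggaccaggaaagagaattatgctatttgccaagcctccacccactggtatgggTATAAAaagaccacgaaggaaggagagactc
Krtap8-1: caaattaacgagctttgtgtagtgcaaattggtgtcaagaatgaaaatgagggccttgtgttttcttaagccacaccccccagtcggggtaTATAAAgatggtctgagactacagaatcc
Krtap4-16: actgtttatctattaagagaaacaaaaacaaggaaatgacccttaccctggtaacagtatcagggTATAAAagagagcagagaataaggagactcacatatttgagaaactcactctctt
Krt77: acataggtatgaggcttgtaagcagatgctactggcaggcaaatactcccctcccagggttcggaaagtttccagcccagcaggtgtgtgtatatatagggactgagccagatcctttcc

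All 6 genes lie on the minus strand. The stretches are chr11:99322952-99323071 for Krt25, chr15:101743098-101743217 for Krt71, chr11:100041555-100041674 for Krt34, chr16:89487953-89488072 for Krtap8-1, chr11:99851606-99851725 for Krtap4-16 and chr15:101869706-101869825 for Krt77. TATAAA began 30 bases before the start in Krt25, 40 in Krt71, 31 in Krt34, 29 in Krtap8-1 and 55 in Krtap4-16. These letters were not in the Krt77 stretch, which reads tatatata at a like place. Only TATAAA was marked, so its absence does not show that Krt77 lacks a TATA box.

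The values are linear signals, which the submitters' processing notes credit to MAS5. Differences are given on the scale log2(signal + 27.4), which understates changes of dim genes, and 1 unit is a doubling. A gene is called dim on an array where its signal is under 165, the median of all values. After 2% of values was cut at either end, the mean signal of the arrays was 500.16 to 500.2, and the medians were 160 to 171. The interfollicular keratinocyte markers Krt1, Krt5, Krt10, Krt14, Krt15, Flg, Lor and Ivl had a summed signal of 51378 in TGF-beta mouse 2, 60184 in TGF-beta mouse 1, 53761 under IL-13, 46243 under TSLP, 71468 in PBS distal and 55145 in PBS local skin, so all 6 arrays carried the markers of skin epithelium. In whole skin, fewer cells of a type and less RNA per cell cannot be told apart. Levels of different probe sets are not set against each other, because probes differ in brightness.

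The hair keratins and keratin-associated proteins were mostly high in TGF-beta mouse 2 and mostly dim on every other array. Among them only Krt25, Krt27, Krt71, Krtap8-1, Krtap6-5 and Krtap15 reached 165 under IL-13. In PBS distal skin only Krt25, Krt27 and Krt32 did. Of the 57 genes, 44 had their highest signal in TGF-beta mouse 2, which was the highest of the 6 arrays for 18.6% of all genes. In 25 of the 57 the order was TGF-beta mouse 2, then IL-13, then PBS distal, then the other 3 arrays, an order that held for 1.09% of all genes. Most of the 25 were dim under IL-13 and in PBS distal skin, so their order below mouse 2 is one among dim values. The signal reached 165 in 35 of the 57 in TGF-beta mouse 2, 5 in TGF-beta mouse 1, 11 under IL-13, 6 under TSLP, 8 in PBS distal and 6 in PBS local skin. Of all 12393 genes, 7741 reached it on at least 1 of the TGF-beta and PBS local arrays. That share is like 35 of 57, so the count in mouse 2 is not unusual. The share of all genes on each single array was not taken. Only Krt23, Krt75, Krt77, Krt79 and Krt80 reached it on all 6 arrays. The same 35 genes were those that reached it on any array.

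**Figure D1:**
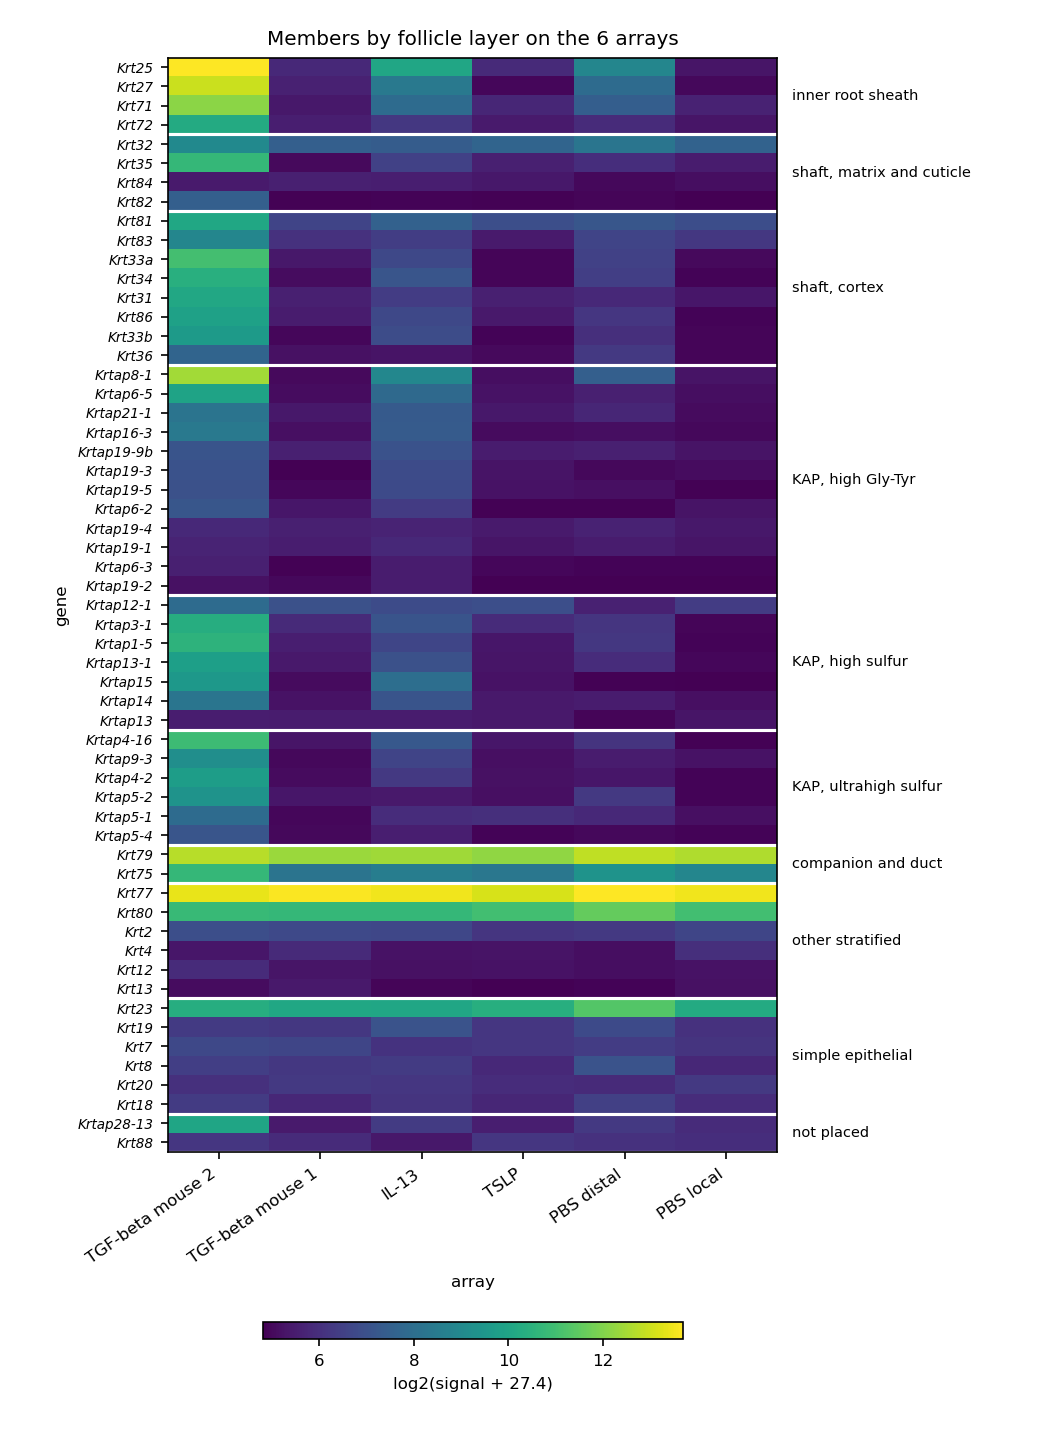
Level of the 57 keratins and keratin-associated proteins, as log2(signal + 27.4), on the 6 arrays, with genes grouped by follicle layer or class (KAP, keratin-associated protein). Colours are to be read along a row; 44 of the rows are brightest in TGF-beta mouse 2, and Krt77, Krt79, Krt80 and Krt23 are bright on every array.

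Among the layers, the inner root sheath keratins differed most between the TGF-beta mice, by a median of 7.06. Krt25, a type I keratin of this layer, had a signal of 13132 in TGF-beta mouse 2, 29.8 in TGF-beta mouse 1, 1049 under IL-13, 30.8 under TSLP, 441 in PBS distal and 12.3 in PBS local skin. For Krt27, another type I keratin, it was 8032 in TGF-beta mouse 2, 21.3 in TGF-beta mouse 1, 309 under IL-13, 3.45 under TSLP, 215 in PBS distal and 4.12 in PBS local skin. Krt71 is a type II keratin of the same layer, and its signal was 4466 in TGF-beta mouse 2, 14.2 in TGF-beta mouse 1, 214 under IL-13, 25.9 under TSLP, 148 in PBS distal and 22.6 in PBS local skin. In all 3, TGF-beta mouse 2 stood far above the rest, IL-13 and PBS distal followed in that order, and the other 3 arrays were dim. Krt72, a type II keratin of the inner root sheath cuticle, was at 1171 in TGF-beta mouse 2, 19.6 in TGF-beta mouse 1, 47.7 under IL-13, 16.4 under TSLP, 32.6 in PBS distal and 11.9 in PBS local skin, with the same order of the first 3 arrays.

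Keratins of the matrix and the shaft cuticle differed among themselves. Krt35, an early type I keratin of the matrix and cuticle, had a signal of 1671 in TGF-beta mouse 2, 4.77 in TGF-beta mouse 1, 64.9 under IL-13, 20.4 under TSLP, 35.6 in PBS distal and 16.9 in PBS local skin. Krt32, a type I cuticle keratin, was at 484 in TGF-beta mouse 2, 154 in TGF-beta mouse 1, 139 under IL-13, 173 under TSLP, 276 in PBS distal and 167 in PBS local skin, so that PBS distal, and not IL-13, came second. Krt82, a type II cuticle keratin, was dim on every array, with 152 in TGF-beta mouse 2 and at most 3.10 on the others. Krt84, a type II keratin known from tongue and nail, was dim on every array, at most at 20.7, and mouse 1 was the higher of the TGF-beta pair.

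All 8 cortex keratins were highest in TGF-beta mouse 2. Krt33a, a type I cortex keratin, was at 2066 in TGF-beta mouse 2, 14.2 in TGF-beta mouse 1, 78.5 under IL-13, 2.88 under TSLP, 64.0 in PBS distal and 4.77 in PBS local skin. Krt81, a type II cortex keratin, was at 1070.1 in TGF-beta mouse 2, 70.1 in TGF-beta mouse 1, 162 under IL-13, 94.4 under TSLP, 118 in PBS distal and 92.2 in PBS local skin. Krt83, also type II, was at 440.5 in TGF-beta mouse 2, 39.2 in TGF-beta mouse 1, 57.2 under IL-13, 15.9 under TSLP, 70.7 in PBS distal and 47.3 in PBS local skin. The other 5 (Krt31, Krt33b, Krt34, Krt36 and Krt86) had between 176 and 1342 in TGF-beta mouse 2 and were dim on the other arrays. IL-13 was above PBS distal in all of the 8 but Krt36, with 10.8 under IL-13 and 50.6 in PBS distal skin, and Krt83.

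The high glycine-tyrosine proteins, which are made in the shaft cortex, were again highest in TGF-beta mouse 2 in 10 of 12 genes, with IL-13 highest for Krtap19-1 and Krtap19-2. Krtap8-1 had a signal of 5589 in TGF-beta mouse 2, 4.92 in TGF-beta mouse 1, 459 under IL-13, 7.27 under TSLP, 152 in PBS distal and 10.7 in PBS local skin. For Krtap6-5 it was 969 in TGF-beta mouse 2, 6.98 in TGF-beta mouse 1, 201 under IL-13, 10.3 under TSLP, 20.4 in PBS distal and 7.97 in PBS local skin, and for Krtap21-1 it was 272 in TGF-beta mouse 2, 14.4 in TGF-beta mouse 1, 133 under IL-13, 13.8 under TSLP, 27.1 in PBS distal and 6.02 in PBS local skin. IL-13 was above PBS distal in all 12 genes of the class. Krtap16-3, on a probe set whose name marks it as shared by several transcripts, had 307 in TGF-beta mouse 2, 134 under IL-13 and at most 8.35 on the other arrays. Krtap19-9b, Krtap19-3, Krtap19-5 and Krtap6-2 were dim throughout, with 99.3 to 118 in TGF-beta mouse 2 and 53.2 to 104 under IL-13. The remaining 4 (Krtap19-1, Krtap19-2, Krtap19-4 and Krtap6-3) did not exceed 29.2 anywhere. Members of these families are alike in sequence, so signal may be split between them, and the share of each gene is uncertain.

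Among the high-sulfur proteins, Krtap3-1 was at 1258 in TGF-beta mouse 2, 30.4 in TGF-beta mouse 1, 112 under IL-13, 31.5 under TSLP, 44.6 in PBS distal and 2.64 in PBS local skin. Krtap1-5 had 1466 in TGF-beta mouse 2, 18.7 in TGF-beta mouse 1, 74.05 under IL-13, 13.0 under TSLP, 48.6 in PBS distal and 1.89 in PBS local skin. Krtap15 was at 723 in TGF-beta mouse 2, 5.97 in TGF-beta mouse 1, 231 under IL-13, 10.4 under TSLP, 1.53 in PBS distal and 0.98 in PBS local skin. It was the gene of this class that reached 165 under IL-13, and it was near 0 in both PBS pieces. Krtap13-1 had 867 in TGF-beta mouse 2 and 99.8 under IL-13, and Krtap14 had 277 in TGF-beta mouse 2 and 109 under IL-13. Krtap13 was at most at 18.0 anywhere. Krtap12-1 was at 210.4 in TGF-beta mouse 2, 101 in TGF-beta mouse 1, 86.6 under IL-13, 94.7 under TSLP, 22.1 in PBS distal and 54.7 in PBS local skin, and its second probe set gave 191 in TGF-beta mouse 2, 7.51 in TGF-beta mouse 1 and 16.2 to 25.2 on the rest.

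Every ultrahigh-sulfur protein was highest in TGF-beta mouse 2 as well. Krtap4-16 had a signal of 1874 in TGF-beta mouse 2, 12.1 in TGF-beta mouse 1, 123 under IL-13, 12.5 under TSLP, 43.6 in PBS distal and 1.38 in PBS local skin. Krtap9-3 had 560.3 in TGF-beta mouse 2, 4.11 in TGF-beta mouse 1, 72.1 under IL-13, 8.54 under TSLP, 16.6 in PBS distal and 10.1 in PBS local skin. Krtap4-2 was at 821 in TGF-beta mouse 2, 5.79 in TGF-beta mouse 1, 49.3 under IL-13, 9.57 under TSLP, 12.7 in PBS distal and 2.03 in PBS local skin, and IL-13 came second in all 3. Krtap5-2 differed from these, with 627 in TGF-beta mouse 2, 15.3 under IL-13 and 50.04 in PBS distal skin. Of the same family, Krtap5-1 had 215 in TGF-beta mouse 2, on a probe set whose name marks possible binding of other transcripts, and Krtap5-4 had 115. Krtap28-13, which was not placed in a class here, had 1014 in TGF-beta mouse 2, 16.5 in TGF-beta mouse 1, 53.1 under IL-13, 19.3 under TSLP, 49.2 in PBS distal and 31.8 in PBS local skin.

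Of the 14 keratins of the companion layer, duct and other stratified or simple epithelia, Krt75 alone was at least 2-fold higher in TGF-beta mouse 2 than in mouse 1. Krt75, of the companion layer between the root sheaths, was at 1659.8 in TGF-beta mouse 2, 267 in TGF-beta mouse 1, 352 under IL-13, 291 under TSLP, 623 in PBS distal and 439.6 in PBS local skin, so that it was measured on every array and highest in TGF-beta mouse 2, with a difference of 2.52 between the mice. Krt79, of the upper follicle and gland duct, was at 6738 in TGF-beta mouse 2, 5218 in TGF-beta mouse 1, 5475 under IL-13, 4716 under TSLP, 7285 in PBS distal and 6275 in PBS local skin. Krt77 had 10589 in TGF-beta mouse 2, 12622 in TGF-beta mouse 1, 11453 under IL-13, 9098 under TSLP, 13085 in PBS distal and 11381 in PBS local skin. Krt80, a keratin of differentiating epithelia, had 1739 in TGF-beta mouse 2, 1669 in TGF-beta mouse 1, 1639.5 under IL-13, 2017 under TSLP, 3027 in PBS distal and 1994 in PBS local skin, and Krt23, a type I keratin of simple and differentiating epithelia, had 1277 in TGF-beta mouse 2, 1072 in TGF-beta mouse 1, 1039 under IL-13, 1301 under TSLP, 2531 in PBS distal and 1183 in PBS local skin. Krt77, Krt79, Krt80 and Krt23 were highest in PBS distal skin. Krt2, Krt4, Krt7, Krt8, Krt12, Krt13, Krt18, Krt19, Krt20 and Krt88 were dim on every array, with a highest signal of 106 for Krt19 under IL-13 and for Krt8 in PBS distal skin.

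TGF-beta skin did not differ from PBS local skin in the same way in both mice. In TGF-beta mouse 2, 37 of the 57 genes were at least 2-fold higher than in PBS local skin, and 0 were lower, where 1.55% of all genes were higher and 1.15% lower, and the median difference was 2.65 against -0.02 over all genes. In TGF-beta mouse 1 there were 0 higher and 0 lower of 57, where 0.363% of all genes were higher and 0.533% lower, with a median of 0.15 against -0.04 over all genes. Accordingly 0 of the 57 were at least 2-fold higher in both mice, a rule that 0.153% of all genes met, and 0 at least 2-fold lower, which 0.113% met. This count depends on the offset that damps dim values. With a smaller one, at the 10th percentile of signals, it was 7 of the 35 members that reached 165 on a compared array. Of all genes so filtered 0.375% were at least 2-fold higher in both mice. All 35 members passed this filter in mouse 2 and 5 did in mouse 1, so the 7 add no support. The difference of Krt25 was 8.37 in TGF-beta mouse 2 and 0.53 in TGF-beta mouse 1, and that of Krt75 was 1.85 in mouse 2 and -0.67 in mouse 1. The largest difference in mouse 1 was 0.94, for Krtap3-1.

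The difference from PBS local skin was tested with limma and Benjamini-Hochberg adjustment over the 7741 genes that reached 165 on at least 1 of the 3 arrays, 35 of them members. All 35 reached it in TGF-beta mouse 2, so most entered through the array where they were high. Within this set too, 0 were at least 2-fold higher in both mice, where 0.181% of the genes tested were, and 0 lower, where 0.155% were. In limma 0 members passed an adjusted p of 0.05, with a smallest adjusted p of 0.864, and 0 members had an unadjusted p under 0.05, as 355 genes did overall. Over all genes tested limma called 0%. For Krt27 the mean difference was 4.31 with a standard error of 3.16, and for Krt80 it was -0.22 with a standard error of 0.16. Only the 2 mice gave a spread for each gene, and limma drew it toward a trend over all genes tested. The standard errors thus rest in part on other genes. The lone PBS local array was taken to vary as the 2 mice do. Over the 57 genes the median difference was 2.52 between mouse 2 and mouse 1 and 2.65 between mouse 2 and PBS local skin.

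**Figure D2:**
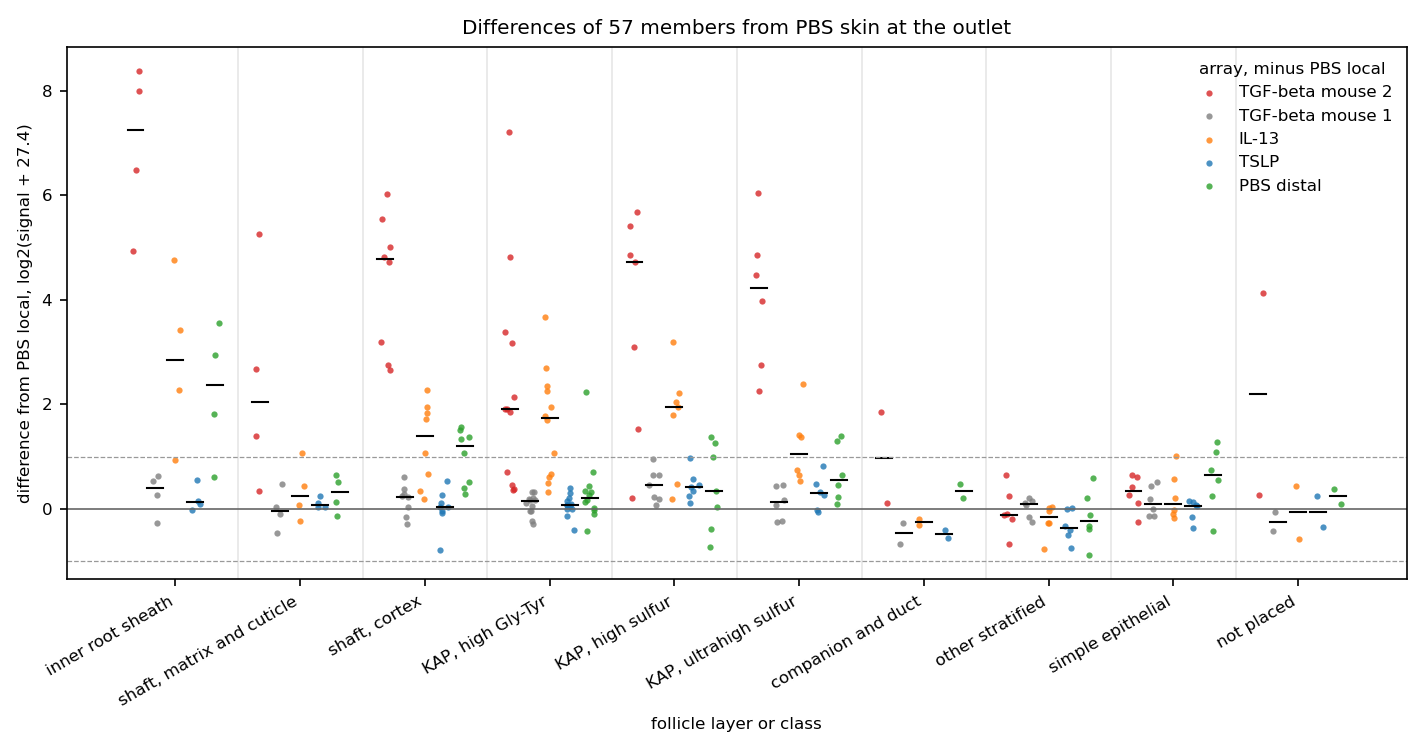
Difference from PBS local skin in log2(signal + 27.4) of each of the 57 genes, by follicle layer or class, for the other 5 arrays; points are genes, black bars medians and dashed lines a 2-fold difference. TGF-beta mouse 2 stands above the line in 37 genes, IL-13 in 26 and PBS distal in 15, with 0 in TGF-beta mouse 1 and 0 under TSLP. Over all genes the shares are 1.55%, 1.06%, 0.815%, 0.363% and 0.775%, in the same order.

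The TGF-beta mice are replicates of 1 group, and the difference between them describes the spread within it, with no test. In mouse 2, 36 of the 57 genes were at least 2-fold higher than in mouse 1, and 0 were lower, where 1.51% of all genes were higher and 0.613% lower. The median over all genes was 0.01. By layer the median of the members was 7.06 for the inner root sheath keratins, 4.49 for the cortex keratins, 4.40 for the high-sulfur, 4.12 for the ultrahigh-sulfur and 1.94 for the high glycine-tyrosine proteins, and 2.07 for the matrix and cuticle keratins. It was 1.44 for the pair of the companion layer and duct, 0.15 for the simple and -0.10 for the other stratified keratins. These medians include members dim on every array, where the offset draws differences toward 0. Only 4 of the 12 high glycine-tyrosine proteins and 2 of the 4 matrix and cuticle keratins reached 165 on any array. The 4 high glycine-tyrosine proteins differed by 2.84 (Krtap21-1) to 7.44 (Krtap8-1). The medians therefore do not show a smaller difference in these 2 classes. All 4 inner root sheath keratins, all 8 cortex keratins and all 6 ultrahigh-sulfur proteins were at least 2-fold higher. Krtap12-1 missed that size on the probe set used, at 0.89, and passed it on its second probe set, at 2.64. Of the 35 that reached 165 in either mouse 30 were at least 2-fold higher and 0 lower, where 1.75% and 0.698% of the genes so filtered were, but all 35 passed the filter in mouse 2 and 5 in mouse 1, so this count adds no support.

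Skin under IL-13 had more transcript of sheath and shaft genes than PBS local skin. Of the 57 genes 26 were at least 2-fold higher than in PBS local skin and 0 were lower, where 1.06% of all genes were higher and 0.363% lower. The 26 were 8 of 12 high glycine-tyrosine proteins, 5 of 7 high-sulfur proteins, 5 of 8 cortex keratins, 3 of 6 ultrahigh-sulfur proteins, 3 of 4 inner root sheath keratins, Krt35 and Krt19, a keratin of simple epithelia and of the follicle bulge. Only 6 of the 26 (Krt25, Krt27, Krt71, Krtap15, Krtap6-5 and Krtap8-1) reached 165 under IL-13, and all 6 were dim in PBS local skin. With the filter at 165 these 6 of 12 members tested were higher and 0 lower, where 1.12% and 0.41% of the filtered genes were, but the 6 passed the filter through the IL-13 array alone, so this count adds no support. Krt25 was higher by 4.76, Krtap8-1 by 3.68, Krt27 by 3.41, Krtap15 by 3.19 and Krtap6-5 by 2.69. The median over the 57 was 0.67, against -0.05 over all genes. The difference has no replicate check, with 1 array a group. Between the TGF-beta mice each of these 5 genes differed by more, at 4.49 to 7.85.

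IL-13 skin was also set against TGF-beta mouse 2, class by class. The inner root sheath keratins had a median difference, IL-13 minus TGF-beta mouse 2, of -4.11, with a range of -4.58 to -3.61, and their IL-13 signal was 3.84% to 7.99% of that in TGF-beta mouse 2. The cortex keratins lay at -2.98, with signals of 3.80% to 15.1%. The ultrahigh-sulfur proteins were at -3.01, with 2.43% to 16.8%. The high-sulfur proteins lay at -1.54, among them Krtap15 with 32.0% and Krtap14 with 39.5%, while Krtap1-5 had 5.05%. The high glycine-tyrosine proteins had a median of -0.20, but 8 of the 12 were dim on every array, where the offset draws differences toward 0. The 4 that reached 165 lay at -3.53 (Krtap8-1), -2.12 (Krtap6-5), -1.05 (Krtap16-3) and -0.90 (Krtap21-1), so no difference from the high-sulfur class is shown. As shares of the signal in TGF-beta mouse 2, Krtap8-1 had 8.22%, Krtap6-5 20.8%, Krtap16-3 43.8% and Krtap21-1 48.8%.

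The same array was set against PBS distal skin. IL-13 skin was at least 2-fold higher than PBS distal skin in 8 of 12 high glycine-tyrosine and 4 of 7 high-sulfur proteins, but in 1 of 4 inner root sheath keratins (Krt25, at 1.20), 2 of 6 ultrahigh-sulfur proteins and 0 of 8 cortex keratins, where 3.54% of all genes were. With Krtap12-1 among the high-sulfur proteins, this came to 15 of the 57 genes. The second probe set of Krtap12-1 went the other way, with 19.5 under IL-13 and 25.2 in PBS distal skin. Class medians were 1.47 and 1.05 for the high glycine-tyrosine and high-sulfur proteins, 0.74 for the ultrahigh-sulfur proteins, 0.46 for the inner root sheath and 0.44 for the cortex keratins. Krtap15 was at 3.16, Krt36 at -1.03 and Krt23 at -1.26, the last 2 being the members at least 2-fold lower, as 2.12% of all genes were. These comparisons share the IL-13 array, rest on 1 array a group and were not tested. The class limits were drawn with the values in view, and only 2 of the 12 high glycine-tyrosine members (Krtap8-1 and Krtap6-5) reached 165 on either array.

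**Figure D3:**
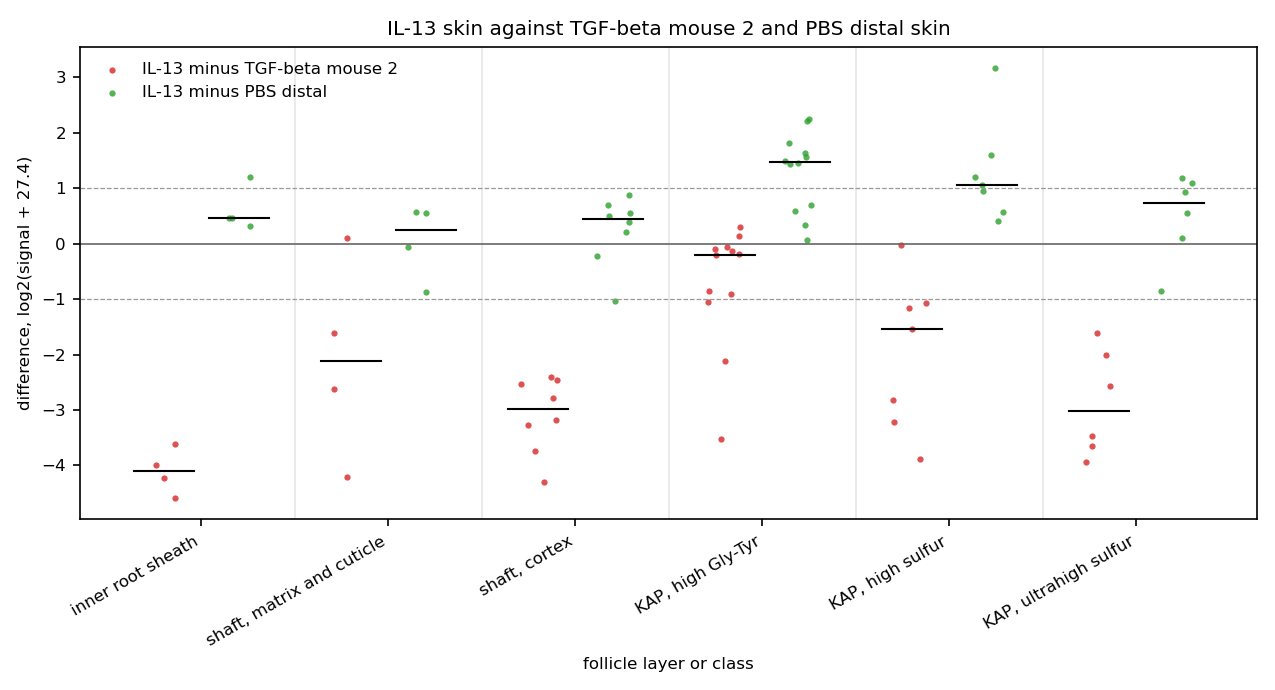
Difference of IL-13 skin from TGF-beta mouse 2 and from PBS distal skin, in log2(signal + 27.4), for the 6 classes of hair keratins and keratin-associated proteins (KAP); points are genes, black bars medians and dashed lines a 2-fold difference. Against TGF-beta mouse 2 the inner root sheath keratins have a median of -4.11, and the high glycine-tyrosine class one of -0.20 that is set by 8 members dim on every array, while its other 4 lie between -3.53 and -0.90.

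Under TSLP 0 of the 57 genes were at least 2-fold higher than in PBS local skin and 0 were lower, where 0.775% of all genes were higher and 0.355% lower. Of the 6 members that reached 165 on either array, 0 were higher or lower, where 0.998% and 0.447% of the filtered genes were. The median over the 57 was 0.07, against -0.00397 over all genes. Krt25 was at 0.55, Krt27 at -0.03 and Krtap8-1 at -0.13. The extremes were Krtap3-1 at 0.97 and Krt83 at -0.79. TSLP has 1 array, so this too has no replicate check.

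PBS distal skin had more transcript of several shaft and sheath keratins than PBS local skin. There were 15 of the 57 genes at least 2-fold higher and 0 lower, where 0.815% of all genes were higher and 2.74% lower. The 15 were 3 of 4 inner root sheath keratins (Krt25 at 3.56, Krt27 at 2.94 and Krt71 at 1.81), 5 of 8 cortex keratins, 5 keratin-associated proteins (Krtap8-1, Krtap5-2, Krtap1-5, Krtap4-16 and Krtap3-1) and the simple epithelial keratins Krt8 and Krt23. Only Krt25, Krt27 and Krt23 of the 15 reached 165 in PBS distal skin, and with the filter these 3 of 8 tested were higher and 0 lower, where 0.788% and 3.51% of the filtered genes were, with Krt25 and Krt27 passing it through PBS distal skin alone. Krt23 was higher by 1.08 and was measured well on both arrays. The median over the 57 was 0.39, against -0.01 over all genes. Other epithelial lists had medians of like size on this array, 0.39 for the interfollicular keratinocyte genes (Flg at 1.54) and 0.42 for the sebaceous genes, and their part in the keratin values was not tested. The pieces differ in body site as well as in distance from the pump, and the site and the pump cannot be told apart.

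PBS distal skin was also used as the control for each cytokine. Against it TGF-beta mouse 2 was at least 2-fold higher in 36 of the 57 genes and lower in 0, where 3.53% of all genes were higher and 1.99% lower. TGF-beta mouse 1 was higher in 1 (Krtap12-1) and lower in 10, where 3.46% and 2.12% of all genes were. TSLP was higher in 1 (Krtap12-1) and lower in 12, where 3.82% and 1.21% of all genes were. The second probe set of Krtap12-1 went the other way, with 7.51 in TGF-beta mouse 1, 18.5 under TSLP and 25.2 in PBS distal skin. On the probe set used, Krtap12-1 was dim on these arrays. Krt25 stood at 4.81 in TGF-beta mouse 2, -3.03 in TGF-beta mouse 1 and -3.01 under TSLP. Krtap8-1 stood at 4.97 in TGF-beta mouse 2, -2.47 in TGF-beta mouse 1 and -2.37 under TSLP. These comparisons share the PBS distal array, and each of them sets the outlet against another body site.

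Other genes of the follicle were also higher in TGF-beta mouse 2. The lists were written with earlier results of these data known. The list of root sheath and shaft genes other than keratins had 25 measured genes, of which 14 were at least 2-fold higher in TGF-beta mouse 2 than in mouse 1 and 0 lower, with a median of 1.17 against 0.01 over all genes, of which 1.51% were higher and 0.613% lower. Tchh, the trichohyalin of the inner root sheath, had 7331 in TGF-beta mouse 2, 69.9 in TGF-beta mouse 1, 415 under IL-13, 41.0 under TSLP, 315 in PBS distal and 32.0 in PBS local skin, with the first 3 arrays in the order seen in Krt25. S100a3, a calcium-binding protein of the hair cuticle, had 4496 in TGF-beta mouse 2, 41.0 in TGF-beta mouse 1, 102 under IL-13, 26.0 under TSLP, 130.03 in PBS distal and 36.4 in PBS local skin, with PBS distal above IL-13. Of 35 follicle regulators, 9 were at least 2-fold higher in mouse 2 and 0 lower (median 0.63), beside the same shares of 1.51% and 0.613% over all genes. The largest differences were 2.78 for Msx2 and 2.01 for Dlx3, which are homeobox factors of the hair matrix. Hoxc13, a homeobox regulator of hair keratin genes that was picked after its values were seen, stood at 1.90. Against PBS local skin, 1 regulator was at least 2-fold higher in both TGF-beta mice (Lgr5, a marker of follicle stem cells), where 0.153% of all genes were, 1 under IL-13 (Ptch1, the hedgehog receptor), where 1.06% were, and 2 in PBS distal skin (Ptch1 and Lhx2), where 0.815% were. So few genes do not describe the list. Of the 25 root sheath and shaft genes, Tchh, S100a3 and Gprc5d under IL-13 were at least 2-fold higher than in PBS local skin. Tchh, S100a3 and Calml3 were so in PBS distal skin. Both S100a3 (102) and Gprc5d (41.0) were dim under IL-13, as S100a3 (130.03) was in PBS distal skin. Under TSLP 0 of the 25 and 0 of the 35 were at least 2-fold higher or lower.

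Markers of other cells differed unequally between the arrays. All 6 measured melanocyte genes were at least 2-fold higher in TGF-beta mouse 2 than in mouse 1, where 1.51% of all genes were, with a median of 2.34, and their summed signal was 5584 in TGF-beta mouse 2, 947 in TGF-beta mouse 1, 1335 under IL-13, 713 under TSLP, 1031 in PBS distal and 576 in PBS local skin. Of the 5 dermal papilla genes, Corin and Wif1 were at least 2-fold higher in mouse 2 (median 0.79). The interfollicular keratinocyte genes had a median of -0.22 between the mice, the stress-induced keratins Krt6a, Krt6b, Krt16 and Krt17 of 0.48 and the 5 sebaceous genes of 0.14, with 0 at least 2-fold higher or lower in these 3 lists. Against PBS local skin, Tyrp1 and Pmel of the melanocyte genes were at least 2-fold higher under IL-13, Flg was in PBS distal skin, and Krt16 was lower under TSLP, at -1.03. In TGF-beta mouse 2 Flg stood at 1.22 and Krt6b at 1.18 against PBS local skin, both also at least 2-fold higher. The summed signal of the dermal papilla genes was 750.1 in TGF-beta mouse 2 and 295 to 435 on the other arrays, and that of the sebaceous genes was 25451 to 34172 over all 6. The part of any of these cells in the keratin differences was not tested.

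**Figure D4:**
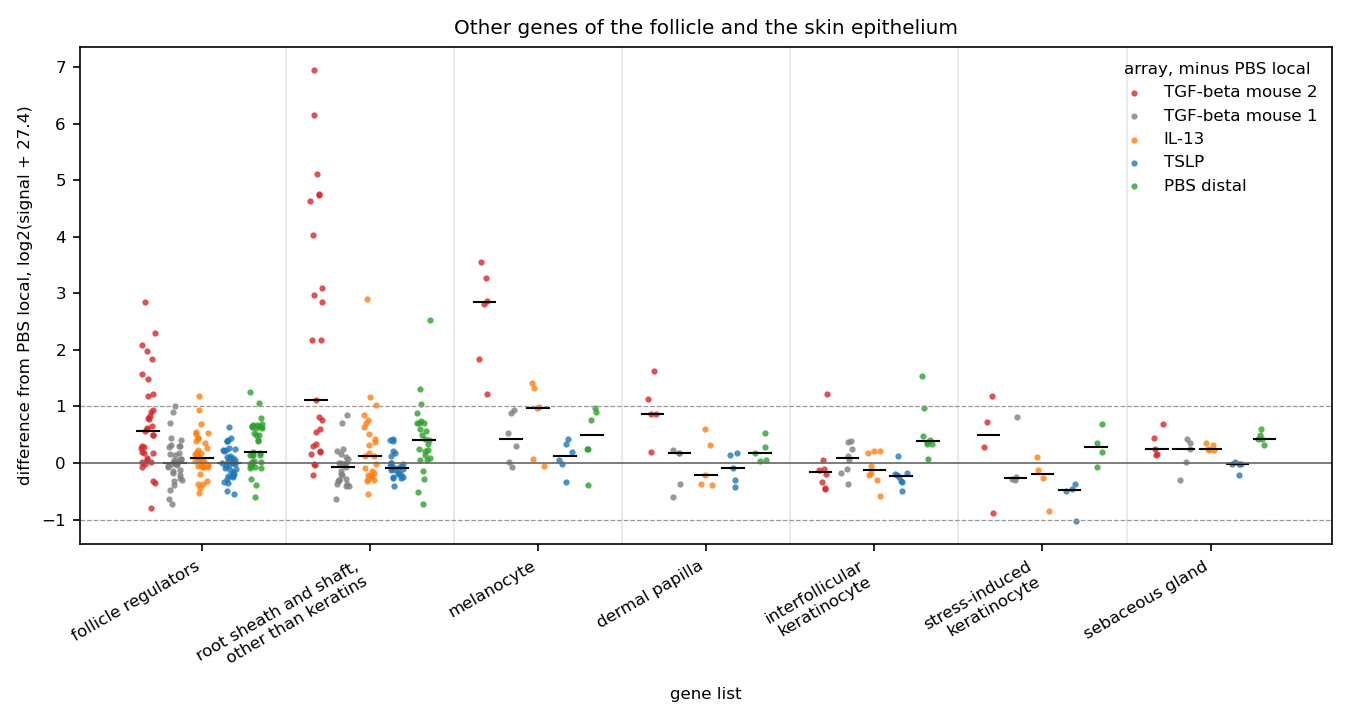
Difference from PBS local skin in log2(signal + 27.4) of the measured genes of 7 lists, for the other 5 arrays; points are genes, black bars medians and dashed lines a 2-fold difference. In TGF-beta mouse 2, 13 of 25 root sheath and shaft genes, 9 of 35 follicle regulators and 6 of 6 melanocyte genes lie above the upper line. So do 2 of 5 dermal papilla genes, 1 of 4 stress-induced keratins (Krt6b), 1 of 8 interfollicular genes (Flg) and 0 of 5 sebaceous genes. Over all genes the share is 1.55%.

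Promoter letters were compared between the members at least 2-fold higher in TGF-beta mouse 2 than in mouse 1 and the other members. Some of the former, such as Krt82 and Krtap19-5, were dim on every array. RefSeq's table held promoters of 47 of the 57 genes, from 250 bases before to 50 after the start, and the first listed was used. TATAAA lay 40 to 15 bases before the start, on the gene's strand, in 16 of 31 genes that were at least 2-fold higher in TGF-beta mouse 2 than in mouse 1, in 3 of 16 other members and in 2.22% of all 27025 promoters. The LEF/TCF core CTTTGA was in the 300 bases, on either strand, in 12 of the 31, 2 of the 16 and 16.2% of all. The HOXC13 consensus, TTTATN or TTAATN followed by a pair of purines, was in 21 of the 31, 6 of the 16 and 19.4% of all on either strand. On the opposite strand TATAAA reads TTTATA, which can be part of a match to it. Counting only matches that share no base with TATAAA left 17 of the 31, 4 of the 16 and 16.4% of all. Related copies share promoter sequence, so these counts are not of independent promoters, and a match describes letters only.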

How the data were processed

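RNA from 6 pieces of mouse skin was measured on Affymetrix arrays of 22690 probe sets. The deposited intensities are linear MAS5 signals, per the submitters' processing notes, with the version not given in the sources used here. No sample column was left unused (0). Arrays were brought to a common trimmed mean (2% off either end), and signals were used as log2(signal + 27.4), the offset being the 25th percentile. Of 20380 probe sets naming 1 gene, 20351 matched RefSeq symbols (GRCm38.p6). The probe set with the highest mean stood for a gene. The planned size counts used genes at or above 165, the median, on at least 1 compared array, and counts over all 57 members, with no filter, lead the text because most members passed the filter through TGF-beta mouse 2.

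TGF-beta was compared with PBS local skin in limma 3.58.1 (R 4.3.3; Python 3.11.15, pandas 2.3.3 and numpy 2.4.6 for the rest), with lmFit, eBayes with a trend, 1 residual degree of freedom and Benjamini-Hochberg adjustment at 0.05. On simulated data for this comparison (7741 genes, 50 changed at each size) 14% of 2-fold, 74% of 4-fold, 80% of 8-fold and 88% of 16-fold changes were found. There 3 unchanged genes were called. The simulated noise was drawn around a smoothed trend of the spread between the mice over all genes tested. The shares therefore do not hold for members with a spread as large as that of Krt27, with a standard error of 3.16. Other groups have 1 array and no test, and the number of arrays limits the precision. Alternatives changed the offset, floor, normalization, filter, probe set rule, control array and mouse.

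Signals on every array are given for the 3 members of each layer with the highest mean among those that reached 165, and for up to 5 members with the largest difference each way in a comparison; others named were chosen after their values were seen. The members and lists were chosen with earlier results of these data known, and the classes of keratin-associated proteins were written from family numbers after the values were seen.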

Additional observations from a re-analysis of the deposited data

Results flagged for a closer look

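Probe sets that name several genes were left out of the comparisons, and 4 of them, all naming keratin-associated proteins, had a signal in TGF-beta mouse 2 above that of both PBS arrays. The probe set naming Gm11554, Gm11569 and Krtap4-13 had 1938 in TGF-beta mouse 2, against 54.7 in PBS distal and 18.0 in PBS local skin. The one naming Gm11559, Gm11567, Gm11568 and Krtap9-1 had 1630.4 in TGF-beta mouse 2, against 50.6 in PBS distal and 32.1 in PBS local skin. The one naming Gm10228, 1110025L11Rik and Krtap6-1 had 834 in TGF-beta mouse 2 and 168.9 under IL-13, against 23.1 in PBS distal and 13.8 in PBS local skin. The one naming Krtap3-2 and Krtap3-3 had 2048 in TGF-beta mouse 2, against 44.6 in PBS distal and 12.8 in PBS local skin. In TGF-beta mouse 1 all 4 were between 1.56 and 29.1. No gene of these probe sets can be given a level of its own.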

How the results depend on the processing

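No paired analysis was possible, because every group but TGF-beta has 1 array. The labels also do not say whether both PBS pieces came from 1 mouse. For TGF-beta against PBS local skin, where 0 of 35 tested members were at least 2-fold higher in both mice and the median of the mean difference was 2.39, leaving out 1 mouse in turn gave 0 (mouse 1 alone) to 31 (mouse 2 alone) members and medians of -0.20 to 4.72. Of all genes tested 0.357% were higher with mouse 1 alone and 1.86% with mouse 2 alone. The count was 7 with the offset at the 10th percentile, where 0.375% of all genes tested met the rule. With PBS distal as control it was 1 of 35 (Krtap12-1, on the probe set used), close to the share of 2.57% over all genes tested. The median was -0.015 with every compared array at or above 165, where 5 members were tested. With no filter the median of the mean difference was 1.24, with the offset at the median 1.23 and with PBS distal as control 1.32. These moves are smaller than the SD of 3.22 between the mice. That SD rests on 2 values, 0.16 in mouse 1 and 4.72 in mouse 2, and is larger than the median of 2.39. It therefore cannot show that the median is stable. For IL-13, 6 of 12 tested were higher and 0 lower, where 1.12% and 0.41% of all genes tested were, with a median of 1.14. With no filter 26 were higher, as 1.06% of all genes were, and the median was 0.67. With every array at or above 165, 0 were higher, as 0.62% of all genes tested were, and the median was -0.20. The offset at the median gave a median of 0.51. With PBS distal as control 4 of 12 were higher and 1 lower, where 4.64% and 2.86% of all genes tested were. The median there was 0.13. For TSLP the median of -0.15 became 0.070 with no filter. With PBS distal as control 3 of 8 were lower, where 1.4% of all genes tested were, and the median was -0.79. Of these 3, Krt25 and Krt27 passed the filter through PBS distal skin alone, so this count adds no support. For PBS distal, 3 of 8 were higher, where 0.788% of all genes tested were, with a median of 0.62. No filter gave 15 of 57, beside 0.815% of all genes, and a median of 0.39. Every array at or above 165 gave 1 of 6 higher, beside 0.541% of all genes tested. The offset at the median gave 2 of 8, beside 0.315%. Between the TGF-beta mice the median of 4.41 became 2.48 with the offset at the median. Both are over 35 members that all reached 165 in mouse 2, and 5 of them in mouse 1. Most hair keratins and keratin-associated proteins entered the filtered counts above only through the array where they were high, so those counts add no support. The filters change which genes are tested, and the offset changes the weight of dim values; for the other settings the cause was not tested. In limma, 0 members passed under every setting run, with a smallest adjusted p of a member of 0.143 to 0.899 over them; with PBS distal as control 4 genes passed, none of them a member. Most members were dim on all arrays but TGF-beta mouse 2, so their differences between the dim arrays lie near the limit of measurement.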
